A study of Mus musculus with 18 samples.

Results

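Smooth muscle nuclei of the mouse urinary bladder were taken from 1 single-nucleus library, a pool of 2 female and 2 male C57BL/6 mice aged 12 months. A nucleus was counted as smooth muscle when it held at least 500 UMIs (unique molecular identifiers, each standing for 1 captured RNA molecule) and when Myh11, Actg2, Des, Cnn1, Tagln, Lmod1, Synm, Acta2, Synpo2 and Smtn together made up at least 2% of them. These 10 genes are called the rule genes here. The rule took 1506 of 3472 nuclei, or 43.4% (95% Clopper-Pearson interval 41.7 to 45.04%), out of 38761 droplet barcodes in the series, and left 1966 other nuclei. The members were thus chosen by their UMIs of the rule genes, and the levels of these genes describe the choice and support nothing. The nuclei are 1 library, so comparisons among them carry no test, and every interval on them covers counting error only.

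All other groups were C57BL/6 too. Bulk RNA sequencing covered intact bladder and dissociated bladder of 12-month females, 3 samples each, the labels giving 3 females per sample. Visium sections, in which each spot reads the RNA of a small tissue region that can hold several cells, came from males of 22 months (2 sections) and 14 months (2 sections), labelled with 4 males each. Dissociated cells that met the same rule were used from 3 droplet libraries: whole bladder of 3 males at 22 months, the detrusor layer of 3 females at 14 months, and a detrusor-enriched whole bladder preparation of 2 females and 2 males at 14 months. Cells meeting the rule were also counted, but not compared, in other whole bladder libraries. These held 3 males at 3 months (1 library) and 2 females and 2 males at 12 months (2 libraries). Another held 2 females and 2 males at 24 months. The labels do not say whether samples of 1 group came from separate animals, so p-values measure the spread between these samples, which may be technical.

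The detrusor is the smooth muscle layer that stores urine at low pressure and contracts to void. Parasympathetic nerves release acetylcholine, which acts on muscarinic receptors, and ATP, which opens P2X1 channels; calcium entering the cell then drives myosin light chain kinase, and force is passed through thin filaments, dense bodies and adhesion sites to the matrix. Transcription of contractile genes is governed in large part by serum response factor and its coactivator myocardin, which act at a DNA element called the CArG box.

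The share of rule-gene UMIs in smooth muscle nuclei ran from 2.00% to 17.7%, with a median of 3.93% and quartiles of 2.82% and 7.13%. There was no empty range at the threshold: 229 nuclei lay between 2% and 2.5%, and 293 lay between 1.5% and 2%. The nucleus nearest the threshold inside it had 12 rule-gene UMIs of 600, and the nearest outside had 26 of 1301. Rule-gene RNA was also present below the threshold, at a median of 0.772% of UMIs in the other nuclei, of which only 3 of 1966 had none. The makeup of that RNA was close to the makeup in smooth muscle nuclei: Acta2 (smooth muscle actin) was 20.9% of rule-gene UMIs in smooth muscle nuclei and 19.8% in other nuclei, Myh11 (smooth muscle myosin heavy chain) 20.1% and 17.9%, Tagln 18.1% and 19.8%, and Actg2 15.6% and 15.997%.

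**Figure D1:**
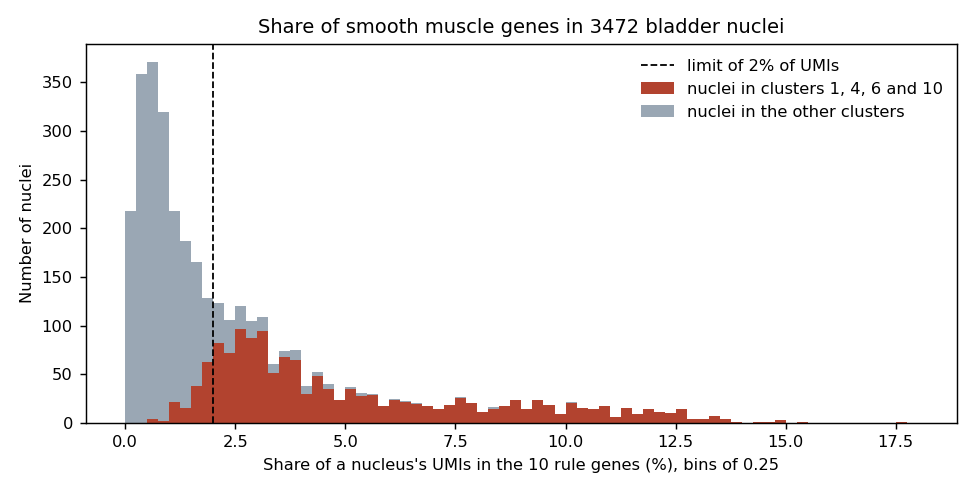
Number of nuclei (vertical axis) by the percent of a nucleus's UMIs in the 10 rule genes (horizontal axis), with the threshold of 2% marked. The 1506 nuclei at or above it and the 1966 below it form 1 continuous distribution with a long right tail.

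All 4 marker genes given for the cells, Myh11, Actg2, Des (desmin) and Synpo2 (a dense body protein), were detected, at 10137, 7845, 4013 and 1508 CPM (counts scaled to the sum of all UMIs of the group) against 1149, 1028, 597 and 145 in other nuclei. Of the defining genes of other cells, 11 of 11 urothelial genes were at least 2-fold lower than in other nuclei, where 22.7% of all genes were, and their summed level was 1313 CPM against 5651. For comparison, the rule genes summed to 50450 CPM and 6429 CPM. The median depth was 1001.5 UMIs in smooth muscle nuclei and 1207 in the others. Scrublet scores marked 52 smooth muscle nuclei as likely doublets.

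The nuclei fell mainly into 3 sets when all nuclei were clustered without the rule genes. Of 11 clusters, 4 had at least as many smooth muscle as other nuclei, and these held 1319 of the 1506 (87.6%), with 583 in cluster 1, 498 in cluster 4, 220 in cluster 6 and 18 in cluster 10. The remaining 187 (12.4%) lay in the other clusters, and 89 of them were in cluster 3. The smooth muscle nuclei of cluster 1 had a median rule-gene share of 3.02%, and Malat1, a long noncoding RNA that is kept in the nucleus, made up a median 24.2% of their UMIs. Those of cluster 4 had a rule-gene share of 8.78% and a Malat1 share of 1.47%. Those of cluster 6 were the deepest of these sets, with a median of 2020 UMIs, a rule-gene share of 4.11% and a Malat1 share of 19.8%.

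Barcodes rich in rule-gene RNA were poor in nuclear-retained RNA. The median Malat1 share was 23.0% of UMIs in nuclei at 2 to 2.5% rule genes, 24.7% at 2.5 to 3%, 20.7% at 3 to 4%, 14.6% at 4 to 6%, 3.97% at 6 to 8%, 1.78% at 8 to 10% and 1.03% at 10% or more. In the other nuclei the median Malat1 share was 12.3%. Shares of a barcode add up to a whole, so these measures are not independent. Mitochondrial RNA was higher in the upper bins, without a steady order. Its median was 0.788, 0.765, 0.865, 1.60, 2.05, 2.01 and 1.90% of UMIs from the lowest bin to the highest. The median depth over the same bins was 1241, 1306, 1232.5, 1019.5, 768.5, 757 and 844 UMIs. The part of nuclear and cytoplasmic RNA, of depth and of mitochondrial RNA in these differences was not tested.

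**Figure D2:**
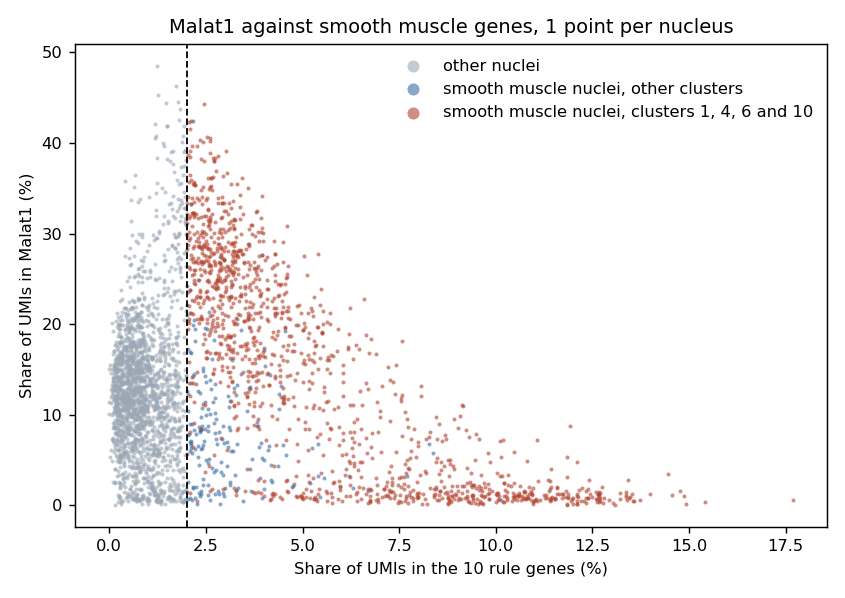
Percent of UMIs from Malat1 (vertical axis) against percent of UMIs in the rule genes (horizontal axis), 1 point per nucleus. The median Malat1 share is 23.0% just above the threshold and 1.03% at 10% or more.

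Carmn, a noncoding RNA that marks smooth muscle and promotes the myocardin programme, was not used by the rule. It was set here against rule-gene UMIs, which the rule did use, so the ratio is not independent of the choice of nuclei. In smooth muscle nuclei of cluster 1 there were 20.6 Carmn UMIs per 100 rule-gene UMIs, and in those of cluster 6 there were 12.5. In smooth muscle nuclei of cluster 4 there were 0.647, from 318 Carmn and 49124 rule-gene UMIs. Other nuclei in clusters 2, 3, 5, 7, 8 and 11 had between 0.383 and 1.71, and those in cluster 9 had 4.86. The 119 nuclei of cluster 1 that stayed under the threshold had 38.7. In this ratio cluster 4 lay within the range of nuclei under the threshold in those clusters, and the nuclei of cluster 1 on both sides of the threshold lay far above it. In CPM it did not. Carmn stood at 564 CPM in smooth muscle nuclei of cluster 4, and at 6460 and 5358 CPM in those of clusters 1 and 6. Other nuclei in clusters 2, 3, 5, 7, 8, 9 and 11 had between 21.3 and 422 CPM. Cluster 4 holds 33.1% of the smooth muscle nuclei, so the leading genes, the gene lists and the comparison with cells are also given without it.

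Each gene was then compared between smooth muscle and other nuclei. Over 12268 genes with at least 20 UMIs outside the rule, 1222 (9.96%) were at least 2-fold higher and 2786 (22.7%) at least 2-fold lower in summed counts, and the median ratio was 0.794. Genes were ranked by the lower 95% bound of the ratio, and the first 50, called leading genes below, had ratios from 7.57 (Mylk) to 26.5 (Brinp2). Ratios of this kind follow from the choice of nuclei and are given as a description. Without cluster 4, 1190 genes were at least 2-fold higher in the remaining 1008 nuclei, all 50 leading genes were still at least 2-fold higher, and 37 of the first 50 were shared. With smooth muscle nuclei taken at 4% or more, 28 of the first 50 were shared. Against other nuclei under 1% rule genes, 35 were shared and the median ratio of the 50 went from 10.1 to 23.7, so the size of these ratios depends on which nuclei they are set against. Among the 13 genes that came in without cluster 4 were Dmd (dystrophin), Sgcd (a sarcoglycan), and Cacnb2 and Cacna2d3, which encode accessory subunits of voltage-gated calcium channels.

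Receptor and channel genes among the 50 are given here first. P2rx1, the ATP-gated channel of detrusor, stood at 988 CPM (95% Poisson interval 944 to 1034) in smooth muscle nuclei and 89.7 CPM (79.7 to 101) in other nuclei, a ratio of 11.02 (9.74 to 12.5). The muscarinic receptors Chrm2 and Chrm3 had ratios of 12.5 (8.40 to 19.3) and 11.5 (8.56 to 15.8). The potassium channel genes Kcnf1, a modifying subunit, and Kcnmb1, the beta subunit of the large-conductance channel, had ratios of 13.3 and 10.2. Calcium handling was represented by Atp2b4, a plasma membrane calcium pump (9.99), Cacna1c, the pore of the L-type channel (8.63), Ryr3, a ryanodine receptor (11.7), and Jph2, which ties plasma membrane to calcium stores (9.34). The AMPA glutamate receptor gene Gria1 (14.2) and the sodium pump subunit gene Atp1b2 (16.4) were also among them.

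Genes of adhesion and the cytoskeleton among the 50 are given next. Flna, encoding filamin A, had 5022 CPM in smooth muscle nuclei and 586 in the others, a ratio of 8.58 (8.16 to 9.01). Integrin genes Itga1, Itga8 and Itgb3 had ratios of 9.66, 15.5 and 10.0. Filamin C (Flnc, 10.6), Pgm5, a phosphoglucomutase relative found at adhesion sites (10.1), Pdlim3 (9.21), Actn1, an alpha-actinin (8.25), Fhod3, a formin (9.12), and Dtna, the dystrobrevin of the dystrophin complex (8.99), were close together. Mylk, the kinase that starts contraction by phosphorylating myosin light chain, had 5782 CPM against 764, a ratio of 7.57 (7.25 to 7.91), and Myom1, known as a myosin-binding protein of striated muscle M-bands, had 8.54.

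The remaining leading genes are given last. Stc1, Bdnf and Pthlh, which encode a secreted glycoprotein, a neurotrophin and parathyroid hormone-related peptide, had ratios of 14.1, 12.8 and 11.9. Slc2a4, the insulin-regulated glucose transporter, had 12.1, and Camkk1, a calcium-dependent kinase, 10.99. Carmn stood at 3936 CPM against 444, a ratio of 8.87 (8.39 to 9.39), and Id4, an inhibitor of helix-loop-helix factors, at 1054 CPM against 118. Of the 1449 Carmn UMIs in other nuclei, 1252 came from the 119 nuclei of cluster 1 under the threshold. The splicing regulators Rbfox3 and Rbm24 had ratios of 9.04 and 8.94. Ptprz1, Col25a1, Ank1, Brinp2, Art3, Ccdc136, Filip1, Rgs2, Aoc3, Mcam, Nt5e, Bves, Asb2, Carns1, Fam129a and Adcy5 were also among them, with ratios from 8.11 for Fam129a to 26.5 for Brinp2, which had 47 and 3 UMIs. At the other end, Mecom, Ugt1a6a, Trp63 (the basal epithelial regulator p63), Hoxb3os and Plch2 were the lowest, with ratios of 0.0682, 0.0673, 0.0811, 0.0176 and 0.0705.

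Promoter sequences were read for the leading genes because the CArG box is the known entry point of serum response factor. RefSeq windows of 250 bases before the start, on GRCm38.p6, were available for 33 of the 50 genes, and a CArG box without mismatch on either strand lay in the window of 3 of them (9.09%). Over all genes of that table the count was 439 of 27025 (1.62%), and it was 0 of 7 for the rule genes in it. A gene can have several windows. Counted by window, the box lay in 3 of 52 (5.77%) for the leading genes and 482 of 32851 (1.47%) over the table. The matching windows are shown 5′ to 3′ on the strand of the gene, with the box in capitals, because they belong to a filamin-interacting protein (Filip1), a ubiquitin ligase subunit that acts on filamins (Asb2) and the M-band protein above.
Filip1, chr9:79977883-79978132, minus strand, box starting 115 bases before the start: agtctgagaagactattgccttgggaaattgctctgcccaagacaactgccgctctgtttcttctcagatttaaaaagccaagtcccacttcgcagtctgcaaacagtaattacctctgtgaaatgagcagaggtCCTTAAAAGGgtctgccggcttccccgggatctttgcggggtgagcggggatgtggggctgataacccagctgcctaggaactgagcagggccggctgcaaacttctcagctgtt
Asb2, chr12:103356002-103356251, minus strand, box starting 64 bases before the start: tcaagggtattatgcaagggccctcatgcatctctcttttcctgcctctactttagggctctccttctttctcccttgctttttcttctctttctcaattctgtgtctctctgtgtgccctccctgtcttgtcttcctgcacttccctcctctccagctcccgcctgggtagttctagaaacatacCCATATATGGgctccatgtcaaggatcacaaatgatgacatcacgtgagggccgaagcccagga
Myom1, chr17:71019307-71019556, plus strand, box starting 99 bases before the start: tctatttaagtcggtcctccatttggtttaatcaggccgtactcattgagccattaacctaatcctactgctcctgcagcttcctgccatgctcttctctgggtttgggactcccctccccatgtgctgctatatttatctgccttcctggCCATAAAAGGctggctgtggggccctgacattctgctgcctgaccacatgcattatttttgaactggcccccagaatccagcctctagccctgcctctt
Filip1 had 4 such windows in the table and Asb2 had 2, and in each gene 1 window held the box. In smooth muscle and other nuclei respectively, Filip1 stood at 389 and 41.0 CPM, Asb2 at 117 and 11.3 CPM, and Myom1 at 418 and 49.0 CPM. A match describes these letters only, and no match says only that they are absent from this window.

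The contractile lists were near uniformly higher in smooth muscle nuclei, read against 9.96% of all genes at least 2-fold higher. Of 11 genes of myosin and the thin filament outside the rule, 11 were at least 2-fold higher, with a median ratio of 6.46. The tropomyosins Tpm2 and Tpm1 stood at 8048 and 7646 CPM against 1431 and 1177, and the lowest ratio was that of Myl6, a myosin light chain made by many cells (3.82). Of 18 genes of adhesion sites and dense bodies, 17 were at least 2-fold higher, with a median of 6.70 and Sorbs2 at 1.82. After Flna the most UMIs in this list were those of Csrp1, a LIM protein gene, at 2673 CPM against 414, and Lpp, at 2044 CPM against 458. Without cluster 4 these lists had 11 of 11 and 17 of 18 at least 2-fold higher, with medians of 5.41 and 5.97.

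Calcium handling, receptor and membrane lists were more mixed. Of 13 genes of calcium and ion channels, 11 were at least 2-fold higher (median 6.42), while Itpr1, the receptor that releases stored calcium, had 0.736 and the store sensor Stim1 had 1.84. Atp2a2, the gene of the calcium pump of the sarcoplasmic reticulum, stood at 979 CPM against 278. Of 8 receptor and signalling genes with enough UMIs, 7 were at least 2-fold higher (median 3.95), with Pde5a, a phosphodiesterase that degrades cyclic GMP, at 596 CPM against 151. In the dystrophin complex 7 of 11 were at least 2-fold higher and 1 was lower (median 3.13): dystrophin itself stood at 1039 CPM against 135, Sgcd at 415 against 65.2, and the syntrophin gene Sntb1 at 2.07 against 22.0. Cav1, the main coat protein of caveolae, had a ratio of 5.37, Cavin1 had 2.68, and Cav2 had 0.645, with 5 of 6 caveolar genes at least 2-fold higher.

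Transcriptional regulators were mixed. Of 13 regulators 4 were at least 2-fold higher and 1 at least 2-fold lower, with a median ratio of 1.61, where 9.96% and 22.7% of all genes were. When smooth muscle nuclei of the 4 main clusters were set against nuclei under 1% rule genes, 7 of 13 were higher and 1 lower, beside 11.7% and 26% of all genes, and the median was 2.06. After Carmn the most UMIs were those of Meis1, at 465 CPM against 259, Meis2, at 412 CPM against 244, and Tead1, at 343 CPM against 399, all within 2-fold. Carmn and Myocd, the gene of myocardin, were high, Myocd with 105 CPM against 14.1 (ratio 7.43, 5.37 to 10.5). Srf, the serum response factor gene, had 72.0 CPM against 30.9 (2.33, 1.79 to 3.04), Prdm6 had 33.7 CPM against 13.5, and Mkl2, another coactivator of serum response factor, had 26.4 CPM against 63.4 (0.417). In the basement membrane list 5 of 14 were at least 2-fold higher, led by the type IV collagen genes Col4a1 (7.13) and Col4a2 (7.15), and Col18a1 was lower (0.313).

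Markers of neighbouring cell types moved in both directions. Of 7 pericyte genes 4 were at least 2-fold higher, with Mcam at 9.50 and Cspg4 at 8.03, and 2 were lower, with Rgs5 at 0.297 and Notch3 at 0.107. Among genes of interstitial cells of Cajal, the receptor gene Kit had 69.9 CPM against 9.79 (7.14) and the chloride channel gene Ano1 36.8 against 211 (0.174). Genes known from skeletal muscle were present at low level, with Ckm at 201 CPM against 27.6, Myh2 at 68.4 against 8.57 and Tnnt3 at 67.3 against 7.96. Tnni2 had a ratio of 0.124, and Myh4 had no UMI in any nucleus, which does not show that it is absent. At least 2-fold lower were 7 of 10 endothelial, 3 of 6 lymphatic, 3 of 6 mesothelial, 2 of 11 fibroblast and 1 of 9 macrophage genes, against 22.7% of all genes. Of 26 genes known to respond to tissue dissociation 3 were higher and 5 lower, shares near the 9.96% and 22.7% of all genes, with a median of 0.923. Jund had 224 CPM against 109.6 and Dnaja1 157 against 214.

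The other lists were also counted without cluster 4, where 9.83% of all genes were at least 2-fold higher and 24% at least 2-fold lower. At least 2-fold higher were 10 of 12 calcium and ion channel genes, 7 of 8 receptor genes, 7 of 11 genes of the dystrophin complex with 1 lower, 4 of 13 regulators with 1 lower, 5 of 14 basement membrane genes with 1 lower, and 4 of 6 caveolar genes. Of the 7 pericyte genes 4 were higher and 3 lower. At least 2-fold lower were all 11 urothelial, 9 of 10 endothelial, 5 of 6 lymphatic, 2 of 6 mesothelial, 3 of 11 fibroblast and 3 of 9 macrophage genes, the shares of the last 3 lists lying near that of all genes. Of the dissociation-response genes 2 of 26 were higher and 4 lower.

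The leading genes were also read across the range of rule-gene shares. Between nuclei at 8% rule genes or more and nuclei at 2 to 3%, 1313 of 7064 genes (18.6%) were at least 2-fold higher and 1513 (21.4%) at least 2-fold lower, with a median ratio of 0.989. These bins largely follow the clusters: 290 of the 304 nuclei at 8% or more were in cluster 4 and 6 in cluster 1, while 288 of the 454 nuclei at 2 to 3% were in cluster 1 and 8 in cluster 4. A difference with the rule-gene share therefore cannot be told apart from a difference between clusters at these ends. Of the 50 leading genes 13 were higher and 12 lower, with a median of 1.18. Beside the 18.6% and 21.4% of all genes, this split says little about the leading genes as a set. Malat1 is part of the sum that CPM is scaled to, and it stood at 246573 CPM at 2 to 3% and 27093 CPM at 8% or more. Its part in these ratios was not tested. Itga1 stood at 1459 CPM (1364 to 1559) in the lowest bin and 1620 CPM (1444 to 1811) at 10% or more over all smooth muscle nuclei. Within cluster 4 it was not level, with 457, 579, 1105, 1515, 1546 and 1625 CPM in nuclei at 2 to 3%, 3 to 4%, 4 to 6%, 6 to 8%, 8 to 10% and 10% or more, while within cluster 1 it had 1653, 1588, 1727 and 1853 CPM in the first 4 of these bins. The cluster 4 values at 2 to 3% and 3 to 4% rest on 5 and 10 UMIs.

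Several genes of the contractile apparatus were higher where the rule genes were higher. Mylk stood at 3517 CPM at 2 to 3% and 10652 CPM at 8% or more, a ratio of 3.03 (2.87 to 3.20). Over the first 4 bins it stood at 3856, 4208, 4991 and 5929 CPM within cluster 1 alone and at 1645, 4402, 5946 and 8464 CPM within cluster 4 alone, higher in each further bin in both. The 1645 CPM of cluster 4 rests on 18 UMIs. Mylk, Flnc, Itga1, Carmn, Chrm3, Col25a1 and Malat1 were counted by cluster within bins, and the other genes named in this comparison were not. Tpm2 had a ratio of 5.33 and the regulatory light chain gene Myl9 5.62, while Tpm1 had 1.28. Flnc had 4.94, although within cluster 1 it stood at 152, 222, 214 and 222 CPM over the first 4 bins, the last from 3 UMIs, and within cluster 4 at 274, 521, 334, 449, 569 and 932 CPM over the 6 bins, the first from 3 UMIs. Fam129a had 3.26, Id4 2.86 and Kcnf1 2.82, and 7 of 11 genes of the myosin and thin filament list were at least 2-fold higher. Col4a1 (3.58), Col4a2 (2.94) and Cav1 (3.18) went with them.

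Other genes had lower values over all smooth muscle nuclei where the rule genes were higher. Carmn stood at 5470, 5434, 4056, 1724, 824 and 326 CPM in nuclei at 2 to 3%, 3 to 4%, 4 to 6%, 6 to 8%, 8 to 10% and 10% or more. Over the same bins Chrm3 stood at 233, 247, 171, 142, 67.1 and 10.5 CPM, and Col25a1 at 768, 837, 620, 306, 165 and 68.4 CPM. Each of these genes had a similar level up to 4% and a lower value in each further bin of all smooth muscle nuclei. Within cluster 1 alone Carmn had 6702, 6646, 5608 and 2298 CPM in the first 4 of these bins, the last from 18 nuclei, and within cluster 4 it had 0, 405, 611, 1000.1, 513 and 318 CPM, with 8 and 16 nuclei in the first 2 bins. Cluster 4 thus had less Carmn than cluster 1 in each of the first 4 bins, and within cluster 4 its highest value was that at 6 to 8%. Within clusters 1 and 6 Chrm3 had no such order: it had 300.05, 262, 151 and 371 CPM in the first 4 bins of cluster 1, the last from 5 UMIs, and 206, 300 (46 UMIs), 247, 265 and 178 CPM in the first 5 bins of cluster 6. In cluster 4 Chrm3 had 0, 116, 43.6, 88.2, 49.2 and 10.6 CPM over all the bins, from 0, 2, 3, 12, 7 and 2 UMIs. Col25a1 had 964, 1001, 857 and 445 CPM in the first 4 bins of cluster 1, the last from 6 UMIs. Camkk1 (ratio 0.141), Brinp2 (0.0809), Ryr3 (0.224), Dtna (0.293), Carns1 (0.224), Ccdc136 (0.256), Gria1 (0.367) and Filip1 (0.382) were also at least 2-fold lower at 8% or more. All 5 nuclear noncoding RNAs with enough UMIs were lower too, with a median of 0.200, and Neat1 had 223 CPM against 873. Myocd had 130 CPM against 88.1, with an interval of the ratio that includes 1 (0.972 to 2.23), and Srf 119 against 39.9. Urothelial genes, as a measure of RNA from other cells, summed to 1138 CPM at 8% or more and 1431 CPM at 2 to 3%, and none of 10 differed 2-fold. The lowest bin also holds 121 nuclei outside clusters 1, 4 and 6, and between clusters RNA of other cells did differ. In smooth muscle nuclei of cluster 4 and cluster 1 respectively, urothelial genes summed to 1528 and 1042 CPM, fibroblast genes to 3316 and 1528, macrophage genes to 337 and 118, lymphatic genes to 184 and 24.7 and endothelial genes to 122 and 46.7 CPM. The part of this RNA in the differences between bins was not tested.

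**Figure D3:**
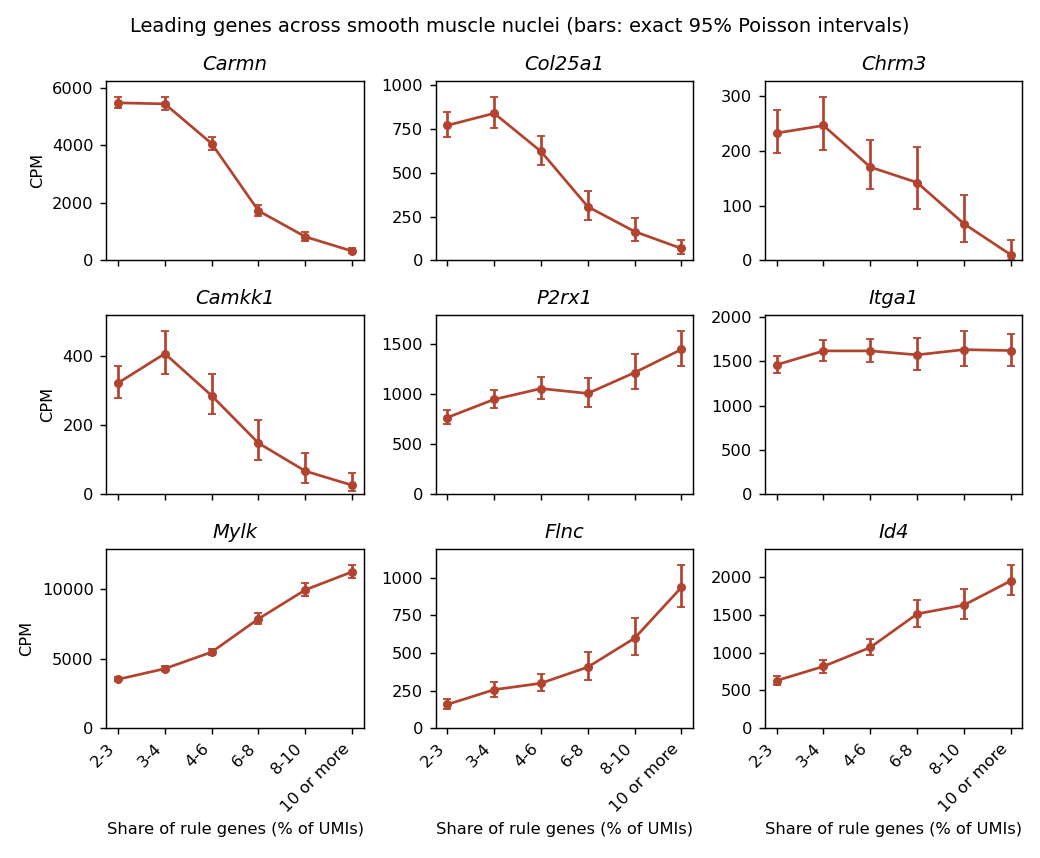
Level in CPM (vertical axes) of Carmn, Col25a1, Chrm3, Camkk1, P2rx1, Itga1, Mylk, Flnc and Id4 by bin of rule-gene share (horizontal axis), with exact 95% Poisson intervals as bars. Carmn goes from 5470 CPM in the lowest bin to 326 in the highest and Flnc from 158 to 936 CPM, while Itga1 lies between 1459 and 1630 CPM.

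Whether genes of smooth muscle nuclei are kept when the bladder is taken apart was read in bulk RNA, which played no part in choosing them. Of 16538 genes tested with edgeR's quasi-likelihood test, 4620 (27.9%) were higher and 5178 (31.3%) lower in dissociated than in intact bladder at an adjusted p under 0.05, and the median log2 fold change was -0.03. Of the 50 leading genes 49 were lower and none was higher, with a median log2 fold change of -2.52. Fewer cells of a type and less RNA per cell cannot be told apart in bulk samples. With the leading genes of nuclei outside cluster 4, 48 of 50 were lower and none higher.

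P2rx1 had 902, 941 and 831 CPM in the intact bladders and 41.4, 28.1 and 17.9 CPM in the dissociated ones, so every intact sample was above every dissociated sample by a wide margin. Its log2 fold change was -4.82 (SE 0.30, edgeR adjusted p = 1.44e-05). Kcnf1 had 137, 147 and 207 CPM against 3.45, 4.03 and 2.77 CPM, the largest fall of the leading genes, with a log2 fold change of -5.46 (SE 0.21, edgeR adjusted p = 2.08e-06). Carmn, with 45.6, 44.9 and 40.4 CPM against 1.74, 1.70 and 1.74 CPM, varied little within each group and fell by 4.55 on the log2 scale (SE 0.11, edgeR adjusted p = 4.31e-07). Rbfox3 and Ank1, the gene of the membrane anchor ankyrin 1, fell by 4.84 and 4.55.

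The muscarinic receptors fell as well. Chrm3 had 38.7, 34.6 and 28.1 CPM in intact and 4.20, 2.85 and 2.52 CPM in dissociated bladder, and Chrm2 had 27.5, 27.6 and 32.1 CPM against 1.74, 1.81 and 2.27 CPM. Flna, the filamin gene, was at 8131, 9049 and 8426 CPM against 1505, 1355 and 1313 CPM. The smallest fall among the 49 was that of Stc1, the secreted glycoprotein gene, with 19.97, 23.7 and 21.8 CPM against 12.9, 12.9 and 16.4 CPM, a log2 fold change of -0.52 (SE 0.13, edgeR adjusted p = 0.0104). Bdnf was the exception among the 50. It had 4.46, 4.62 and 10.6 CPM in intact and 8.86, 9.73 and 11.2 CPM in dissociated bladder, so the groups overlapped, and its log2 fold change was 0.72 (SE 0.33, edgeR adjusted p = 0.0975). Without the third intact sample Bdnf was called higher.

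**Figure D4:**
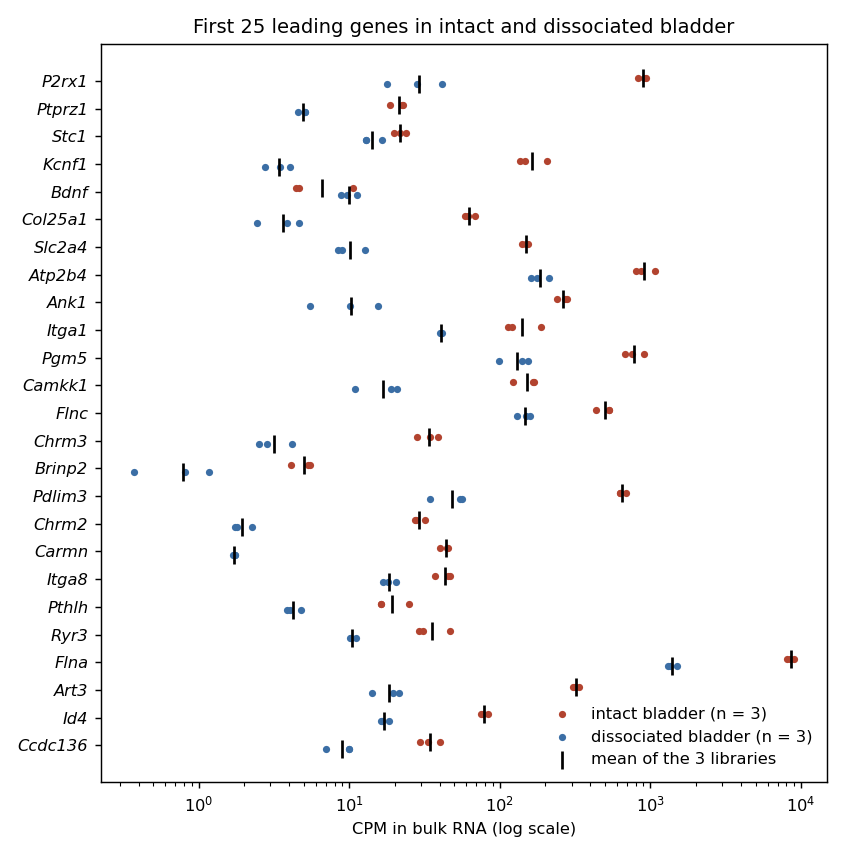
CPM on a log axis of the first 25 leading genes in 3 intact and 3 dissociated bladder samples, with 1 point per sample and a bar at each group mean. The mean of every gene shown but Bdnf is lower in the dissociated samples.

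Contractile lists fell in bulk, and the dystrophin, receptor, regulator and basement membrane lists had members called in both directions. All 11 genes of myosin and the thin filament (median -2.86), all 18 of adhesion sites and dense bodies (-1.90) and 11 of 13 calcium and ion channel genes (-2.14) were lower, as were the 10 rule genes (-3.94) and 8 of 9 caveolar genes (-0.43). Beside 27.9% of all genes higher and 31.3% lower, in the dystrophin complex 6 of 12 were lower and 4 higher, and in the receptor list 6 of 12 were lower and 4 higher, from Tacr2, the neurokinin receptor, at -5.72 to the adrenergic receptor gene Adra1a at 2.00. Of 14 regulators 6 were lower and 3 higher, and of 14 basement membrane genes 1 was lower and 8 higher. In the same samples 29 of 29 dissociation-response genes were higher (median 4.14), as were 12 of 12 fibroblast (1.22), 9 of 9 macrophage (0.53) and 8 of 10 endothelial genes (0.95), and 6 of 6 adipocyte genes were lower (-4.76). The part of these shifts in cell makeup and stress response in the values of the leading genes was not tested.

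In tissue sections the leading genes were read in spots rich in rule-gene RNA, where no dissociation took place. In each of the 4 sections the highest quartile of spots by rule-gene share was summed and compared with the lowest quartile; these spots had median rule-gene shares of 5.05 to 8.29% and 0.145 to 0.260%. Over 13204 genes, 4446 (33.7%) were higher and 4978 (37.7%) lower in muscle-rich spots (edgeR, section as a term, adjusted p under 0.05), with a median log2 fold change of -0.07. All 50 leading genes were higher, with a median of 4.35 and a range from 2.78 (Carns1) to 5.46 (Chrm3), and in none of them did any muscle-poor value reach a muscle-rich one, as held for 24.1% of all genes tested, higher in muscle-rich spots. With all spots split at the median of the rule-gene share in place of quartiles the 50 were again higher, with a smaller median of 3.00. The leading genes of nuclei outside cluster 4 gave 48 higher of 48 tested.

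Chrm3 led the list. In muscle-rich spots it had 21.3 and 35.2 CPM in the 22-month and 36.1 and 30.4 CPM in the 14-month sections, against 0.5003, 0.767, 1.11 and 0.728 CPM in muscle-poor spots, a log2 fold change of 5.46 (SE 0.18, edgeR adjusted p = 1.23e-10). Carmn had 15.1, 13.2, 10.7 and 13.7 CPM against 0.389, 0.288, 0.341 and 0.405 CPM, a log2 fold change of 5.33 (SE 0.27, edgeR adjusted p = 2.50e-09). P2rx1 had 2263, 1561, 1351 and 1608 CPM against 51.9, 35.7, 77.9 and 41.3 CPM (5.25, SE 0.26, edgeR adjusted p = 5.14e-07). Gria1 (5.42), Rbfox3 (5.34) and Brinp2 (5.28) followed. Bdnf, which did not fall in bulk, had 20.1, 22.0, 34.3 and 6.39 CPM in muscle-rich against 1.28, 0.479, 2.73 and 0.405 CPM in muscle-poor spots. It was thus higher in the muscle-rich spots of each section (4.27, SE 0.25, edgeR adjusted p = 7.67e-09). These spots also hold other cells, as given below, so the cell that holds this RNA is not known from them.

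**Figure D5:**
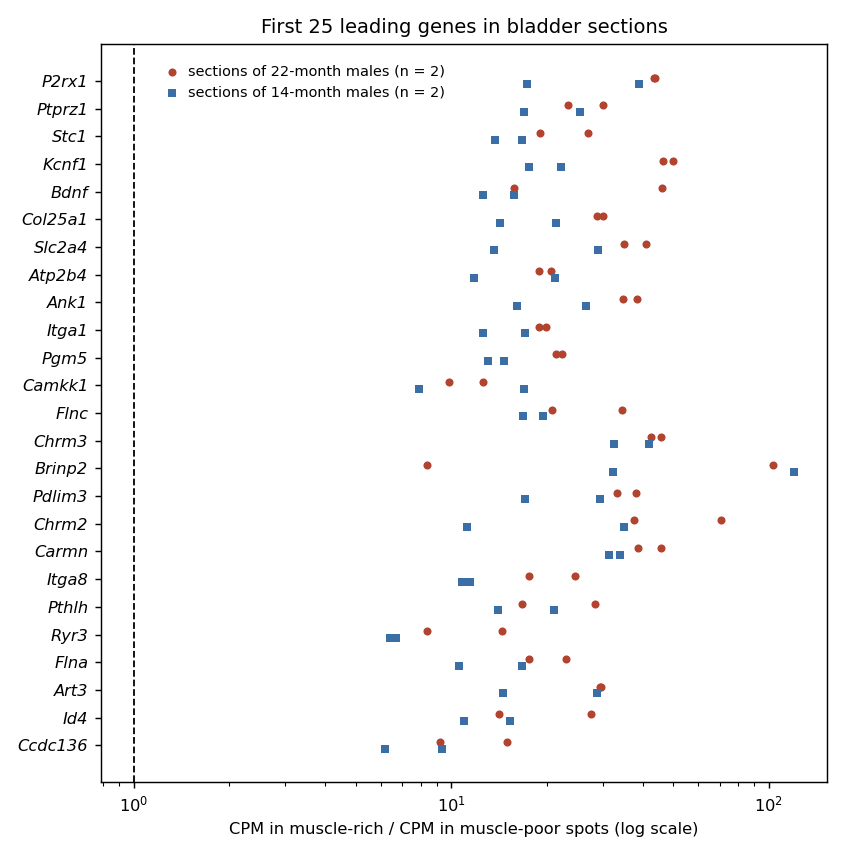
Ratio of CPM in muscle-rich to CPM in muscle-poor spots on a log axis for the first 25 leading genes, with 1 point per section and a line at a ratio of 1. Every point shown lies to the right of that line.

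Myosin and thin filament genes (11 of 11, median 4.13), adhesion genes (18 of 18, median 3.85) and calcium and ion channel genes (12 of 13, with Itpr1 at -0.16) were higher in muscle-rich spots. Of 13 regulators 12 were higher, beside 33.7% of all genes: Myocd had 8.70, 6.71, 8.94 and 9.74 CPM against 0.222, 0, 0.426 and 0.324 CPM, and Srf had 175, 160, 163 and 200 CPM against 34.7, 29.9, 65.1 and 43.1 CPM. Mkl2 was lower in muscle-rich spots (-1.31), as was Sntb1 (-2.20), and both were also lower in smooth muscle nuclei. Of 9 pericyte genes 6 were higher and 2 lower in muscle-rich spots, with a median of 0.94, the lower ones being Rgs5 (-2.40) and Notch3 (-1.22). Spots hold other cells besides muscle: all 11 urothelial genes were lower in muscle-rich spots (median -2.18), and 6 of 6 lymphatic (3.94), 6 of 7 Schwann cell (3.48), 8 of 9 macrophage (2.15) and 7 of 12 fibroblast genes (1.21) were higher. Of 6 mesothelial genes 4 were higher and 2 lower, with a median of 4.01. Muscle-rich spots also held fewer UMIs, with medians of 11258 to 15324 against 36647 to 55231. The part of other cells and of depth in these differences was not tested.

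The contrast between spot classes was also compared between ages, with 2 sections each. Of 13204 genes 9 had a different log2 fold change at 22 and 14 months (edgeR interaction term, adjusted p under 0.05), and 1083 had an unadjusted p under 0.05. Among the 50 leading genes 1 was called, Kcnf1, and 17 had an unadjusted p under 0.05. The ratio of muscle-rich to muscle-poor CPM of Kcnf1 was 46.3 and 49.97 in the 22-month and 22.1 and 17.5 in the 14-month sections, a difference of 1.28 on the log2 scale (edgeR adjusted p = 0.0386). The difference had the same sign in 48 of the 50, with a median of 0.56 beside 0.01 over all genes. Muscle-rich spots had median rule-gene shares of 6.80 and 8.29% at 22 months and 6.40 and 5.05% at 14 months, and the part of this in the difference was not tested. Age and section batch cannot be told apart with 2 sections per age.

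Smooth muscle nuclei were last set beside dissociated cells that met the same rule. The rule took 82 of 9080 cells of the 22-month whole bladder library (0.903%), 750 of 6400 of the detrusor library (11.7%) and 264 of 6163 of the detrusor-enriched library (4.28%), and between 2 and 13 cells in each of the 4 other libraries, against 43.4% of nuclei. No barcode was shared between the smooth muscle nuclei and these cells. In barcodes that did not meet the rule, rule genes made up 0.643% of UMIs in nuclei and 0.00348 to 0.169% in the cell libraries. The part of this in the shares of nuclei and cells taken was not tested. With 1 nuclei library against 3 cell libraries, edgeR called 0 of 11660 genes higher and 0 lower (0% each), while DESeq2 called 130, and 1462 genes had an unadjusted p under 0.05 in edgeR. Nuclei and cells also differed in age and depth, and 2 of the 3 cell libraries came from 1 sex where the nuclei came from both, with medians of 1001.5 UMIs in nuclei and 1658.5, 7718 and 9904 in cells, so preparation cannot be told apart from these. RNA of other cells moved with the comparison too: pericyte genes made up 0.0611% of UMIs in nuclei and 0.153%, 0.0700% and 0.134% in the 22-month, detrusor and detrusor-enriched cells, with Notch3 at 4.23 CPM against 184, 99.1 and 180.2 CPM. Fibroblast genes made up 0.282% against 1.82%, 0.161% and 0.197%, and urothelial genes 0.131% against 0.0372%, 0.00024% and 0.0326%. Their part in the values below was not tested.

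The levels are therefore given as values, with CPM scaled here to the sum over the 26360 genes common to these libraries. They differ slightly from the CPM of the same nuclei above. Percents of UMIs are of all UMIs, of which mitochondrial RNA was 1.65% in nuclei and 16.4 and 18.9% in the detrusor and detrusor-enriched cells. It was 0 in the 22-month cells and in the 3-month cells meeting the rule. Both of those libraries list 27775 genes, where the nuclei and detrusor libraries list 31053. Whether mitochondrial genes were left out of them was not checked, so the 0 is not read as a level. Percents of the 22-month cells may thus have an unlike base. Camkk1 had 271 CPM in nuclei and 5.93, 19.3 and 22.0 CPM in the 22-month, detrusor and detrusor-enriched cells (log2 fold change 3.45, edgeR adjusted p = 0.196), Chrm3 had 184 CPM against 0, 24.9 and 31.0 CPM, and Ryr3 had 131 CPM against 0, 16.9 and 11.8 CPM. Other leading genes went the other way. Atp1b2 had 30.7 CPM in nuclei against 279, 74.2 and 101 CPM, Aoc3 106 CPM against 196, 144 and 202 CPM, and Itga8 53.4 CPM against 77.1, 98.5 and 156 CPM. These genes were picked, and how many of all genes lie above or below all 3 cell libraries was not counted. Mylk had 5906 CPM in nuclei against 1880, 6208 and 4063 CPM, inside the range of the cells. Carmn was not among the common genes, so it could not be compared with cells. Over 49 leading genes tested the median log2 fold change was 1.16, beside 0.05 over all genes, and it was 0.71 without the 22-month library and 1.11 without cluster 4. The leading genes were chosen for a high level in these nuclei, so this median supports nothing. With cluster 4 left out of the nuclei, none of 11533 genes was called by edgeR (0 at an adjusted p under 0.05), although 1953 passed 0.05 before adjustment. Dissociation-response RNA made up 0.205% of UMIs in smooth muscle nuclei and 4.91%, 3.20% and 2.54% in the cells. Fos, an immediate early gene, had 63.5 CPM in nuclei against 10183, 5265 and 3900 CPM, and Atf3, a stress-induced factor, 3.17 CPM against 2011, 2492 and 1074 CPM. Malat1 made up 16.6% of UMIs in the nuclei and 0.576%, 3.98% and 4.41% in the cells. Removing the 22-month library, whose 82 cells were the shallowest, left 977 of 11548 genes called higher (8.46%) and 970 lower (8.4%) in nuclei, and among the 49 leading genes 13 higher and 3 lower. These calls rest on the spread between 2 cell libraries, since the nuclei are 1 library, and the leading genes were chosen for a high level in these nuclei, so their count supports nothing.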

How the data were processed

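The deposited droplet and Visium tables hold whole UMI counts per gene and barcode or spot, and the bulk table holds whole read counts per gene. The submitters' processing notes name Cell Ranger, Space Ranger, bcl2fastq, Subread, featureCounts and mm10, without versions. Totals were 5197910 UMIs for the nuclei library and 23083752 to 68760791 reads per bulk sample.

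Members and gene lists were chosen with earlier results of these data known. Counts of nuclei were summed and expressed as CPM, with exact Poisson intervals, and ratios with exact conditional binomial intervals at 95%. A ratio of 2 or more is a size, not a test. Leading genes are the 50 with the highest lower bound of the ratio of smooth muscle to other nuclei (at least 20 UMIs, without rule, mitochondrial and predicted genes, counts of 0 set to 3). By rule the text names the first 25, the 5 lowest, members of the lists with the most UMIs and those that go against the rest (marker lists of other cells mostly by counts), and in each test the 5 leading genes with the largest rise or fall. Other genes named were chosen after their values were seen. Values of a few counted genes are not reported here. Nuclei were clustered with scanpy 1.11.5 (Leiden method, igraph version) on 2000 variable genes without the rule genes, 30 components, 15 neighbours and resolution 1. Doublets were scored with Scrublet at 0.8% per 1000 barcodes and kept. Bulk, section and library sums were tested with edgeR 4.0.16 (quasi-likelihood, robust, TMM, filterByExpr, two-sided, Benjamini-Hochberg over all genes) in R 4.3.3, with DESeq2 1.42.0 as an alternative; sections had section as a term, and cell libraries needed 50 rule cells. Spots under 500 UMIs were left out. The scripts were tested on simulated data. CArG boxes were searched in RefSeq promoter windows of GRCm38.p6. Alternatives were other thresholds, filters, size factors, doublets removed, 500 UMIs per nucleus, and single samples left out.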

Additional observations from a re-analysis of the deposited data

Results flagged for a closer look

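Kcnf1, a potassium channel subunit gene among the leading genes of smooth muscle nuclei, had a larger contrast between muscle-rich and muscle-poor spots in the 22-month than in the 14-month sections, by 1.28 on the log2 scale in edgeR's interaction test (adjusted p = 0.0386). In muscle-rich spots it had 173 and 182 CPM at 22 months and 189 and 75.2 CPM at 14 months, and in muscle-poor spots 3.72 and 3.64 CPM against 8.52 and 4.29 CPM. The first 14-month section, which had the 8.52 CPM, held muscle-poor spots with rule-gene shares of up to 1.84%. In the other sections the highest share of such spots was 0.349 and 0.268% at 22 months and 0.445% at 14 months. The part of this in the difference was not tested. The difference had the same sign in 48 of the 50 leading genes, and muscle-rich spots had higher rule-gene shares at 22 months.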

How the results depend on the processing

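The share of smooth muscle nuclei moved with the rule: 63.5% at a threshold of 1%, 30.3% at 3%, 16.7% at 5%, and 37.7% among nuclei with at least 1000 UMIs. It was 42.1% to 43.4% with doublets or high mitochondrial barcodes removed or by cluster. Genes at least 2-fold higher numbered 840 to 1395 over 7 alternatives, 2 of them added after seeing the data. In bulk, 8128 to 10011 genes were called and 96% to 100% of leading genes; in sections, 8421 to 10333 and 100%. Direction and call held in all 95 alternative values of 10 results, the 5 leading genes with the largest fall in bulk (Kcnf1, Rbfox3, P2rx1, Ank1, Carmn) and the 5 with the largest rise in sections (Chrm3, Gria1, Rbfox3, Carmn, Brinp2); other named genes were not followed this way, though with spots split at the median share the section values were smaller, from 5.46 to 3.49 for Chrm3 and from 5.33 to 3.30 for Carmn; Bdnf gained a call in bulk without the third intact sample, with DESeq2 and with the replicate block.

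In the comparison with cells, the results depended on 1 library and on the filter. Leaving out each cell library in turn gave 20 to 1947 genes called, and 0% to 32.7% of leading genes; without the 22-month library, that is with the detrusor and detrusor-enriched cells alone, 1947 genes and 32.7% were called. Without the filter on low counts 312 genes (208 higher, 104 lower) and 4.08% of leading genes were called, and with DESeq2 130 (8 higher, 122 lower) and 2.04%; the cause was not tested. Without the detrusor library 20 genes were called and without the detrusor-enriched library 28. The median over all genes moved from 0.05 to 0.15 with RLE size factors. All genes tested numbered 16642 without the filter, 9397 with DESeq2 and 11548 without the 22-month library, and the leading genes tested numbered 49 in each. Read against these totals, shares of 4.08% and 2.04% say little about the leading genes as a set. For the 32.7%, the shares of all genes called higher and lower are given with the comparison above. The leading genes were chosen for a high level in these nuclei, so their shares support nothing.

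Bulk samples share replicate numbers. Deviations from the group means correlated at r = 0.20, 0.34 and -0.07 for the 3 same-numbered pairs. The r of 0.34 was the highest of all pairs, while intact sample 1 went best with dissociated sample 3 (0.28). Deviations of 3 samples from their own mean constrain each other, so these values cannot decide whether the samples were paired. With the replicate block 10011 genes and 100% of leading genes were called, Bdnf as higher.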
